A study of Mus musculus with 8 samples.

Results

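The genes described here encode subunits of the fast cation channels that acetylcholine, ATP and serotonin open in peripheral neurons. They are Chrna3, Chrna4, Chrna6, Chrna7, Chrnb2 and Chrnb4 of the nicotinic receptors, P2rx2, P2rx3 and P2rx4 of the P2X receptors, and Htr3a of the 5-HT3 receptor. Every probe set that the platform's annotation assigns to one of these 10 genes alone was taken, which gave 24 of the 45037 probe sets other than controls, for 10 of 18193 named genes. Each gene had between 1 and 4 of them.

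The signals come from total RNA of mouse on 8 Affymetrix expression arrays, of which 4 are labelled Exp and 4 Ctrl, each numbered 1 to 4. No treatment, genotype, strain or age is given for either group, so what sets Exp apart from Ctrl, and what both share, is not known here. One label field names the trigeminal ganglion, which supplies sensation to the face, and another names brain and adrenal medulla. Nothing states that each array came from a separate animal, and p-values therefore measure the spread over arrays, some of which could be technical.

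Nicotinic receptors are rings of subunits around a cation pore. Alpha subunits carry the main face of the acetylcholine site, and partner subunits such as beta2 and beta4 complete it. The alpha3 and beta4 subunits form the receptor of fast transmission in autonomic ganglia, the alpha4 and beta2 subunits form the common high-affinity receptor of the brain, and alpha7 subunits form a calcium-permeable receptor of their own. P2X receptors are ATP-gated channels, and P2X3, alone or with P2X2, is the ATP receptor of small sensory neurons. The 5-HT3A subunit is needed in every 5-HT3 receptor, a channel of the same family as the nicotinic receptors.

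Chrna3 and Chrnb4 lie side by side on mouse chromosome 9, with Chrna5 next to Chrna3 and no other protein-coding gene between the 3 in the RefSeq annotation of GRCm38.p6. Promoter windows of the subunits that pair in these receptors are shown so that the genes whose levels are compared below can be set against each other as sequence. The RefSeq promoter table held 6 of the 10 genes. Each window runs on the minus strand from 140 bases before the annotated start through 10 bases after it, 5′ to 3′, and capitals mark the GC box letters GGGCGG or their reverse complement CCGCCC. The windows are chr9:55026553-55026702 for Chrna3, chr9:55048535-55048684 for Chrnb4, chr2:181039168-181039317 for Chrna4 and chr3:89764623-89764772 for Chrnb2 (GRCm38.p6).
Chrna3: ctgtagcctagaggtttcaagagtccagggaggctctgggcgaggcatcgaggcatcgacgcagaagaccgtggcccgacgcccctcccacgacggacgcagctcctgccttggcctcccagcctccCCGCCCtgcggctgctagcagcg
Chrnb4: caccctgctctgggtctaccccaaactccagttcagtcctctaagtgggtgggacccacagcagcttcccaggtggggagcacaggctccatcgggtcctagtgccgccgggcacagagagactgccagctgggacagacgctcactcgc
Chrna4: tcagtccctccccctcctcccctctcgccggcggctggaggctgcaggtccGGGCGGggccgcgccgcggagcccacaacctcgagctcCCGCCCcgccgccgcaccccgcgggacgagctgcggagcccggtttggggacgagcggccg
Chrnb2: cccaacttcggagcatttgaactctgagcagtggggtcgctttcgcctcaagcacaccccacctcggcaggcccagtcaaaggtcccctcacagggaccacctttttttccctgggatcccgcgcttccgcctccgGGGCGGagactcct

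The window of Chrna4 held 2 such matches, those of Chrna3 and Chrnb2 held 1 each, and that of Chrnb4 held 0. Across all 32851 promoter windows of this length, 28.9% held at least 1 match on either strand. A match is a description of letters and not a site of binding.

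The deposited values are linear signals, which were taken as log2(signal + 16) and quantile normalised. In the text a level is in these log2 units, and a difference is Exp minus Ctrl of that level. Probe sets with a mean level below the 40th percentile of all levels (8.45, near a signal of 333) were left out of the test, which kept 27022 probe sets. Median signals of the arrays lay between 478 and 553, and the number of arrays limits the precision of each comparison. Of the 16 listed sensory neuron genes with a probe set, 16 passed this filter, and their summed signal was 474221 to 549217 in Exp and 485064 to 512391 in Ctrl. Chromaffin and sympathetic genes passed in 5 of 9 cases (summed signal 33060 to 34520 in Exp, 34105 to 37522 in Ctrl) and brain genes in 5 of 12 (6352 to 9403 in Exp, 6935 to 8304 in Ctrl), and no gene of these lists had a signal at 0. Skeletal muscle genes separated single arrays, with a summed signal of 75485 in Exp 3 and 6906 to 24809 in the other 3 Exp arrays, against 8778 to 13356 in Ctrl.

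None of the receptor genes was called as different between Exp and Ctrl. Of the 24 probe sets, 16 passed the filter, from 8 of the 10 genes, and 0 passed limma's test at a 5% false discovery rate (adjusted p = 0.999 for each). In the same fit 1 of all 27022 probe sets was called, or 0.0037%. At an unadjusted p under 0.05, limma likewise gave 0 of the 16, where 4.69% of all tested probe sets lay under that value. The groups did not overlap in 0 of the 16, against 2.34% of all tested probe sets. Exp was lower in 10 of the 16 and higher in 6, with a median difference of -0.13, and 51.6% of all tested probe sets were lower in Exp, with a median of -0.0058. For 14 of the 16 (87.5%) the 95% confidence interval excluded both a doubling and a halving, as it did for 93.5% of all tested probe sets. The 2 wide intervals were those of Chrna4 and of 1 probe set of P2rx4.

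**Figure D1:**
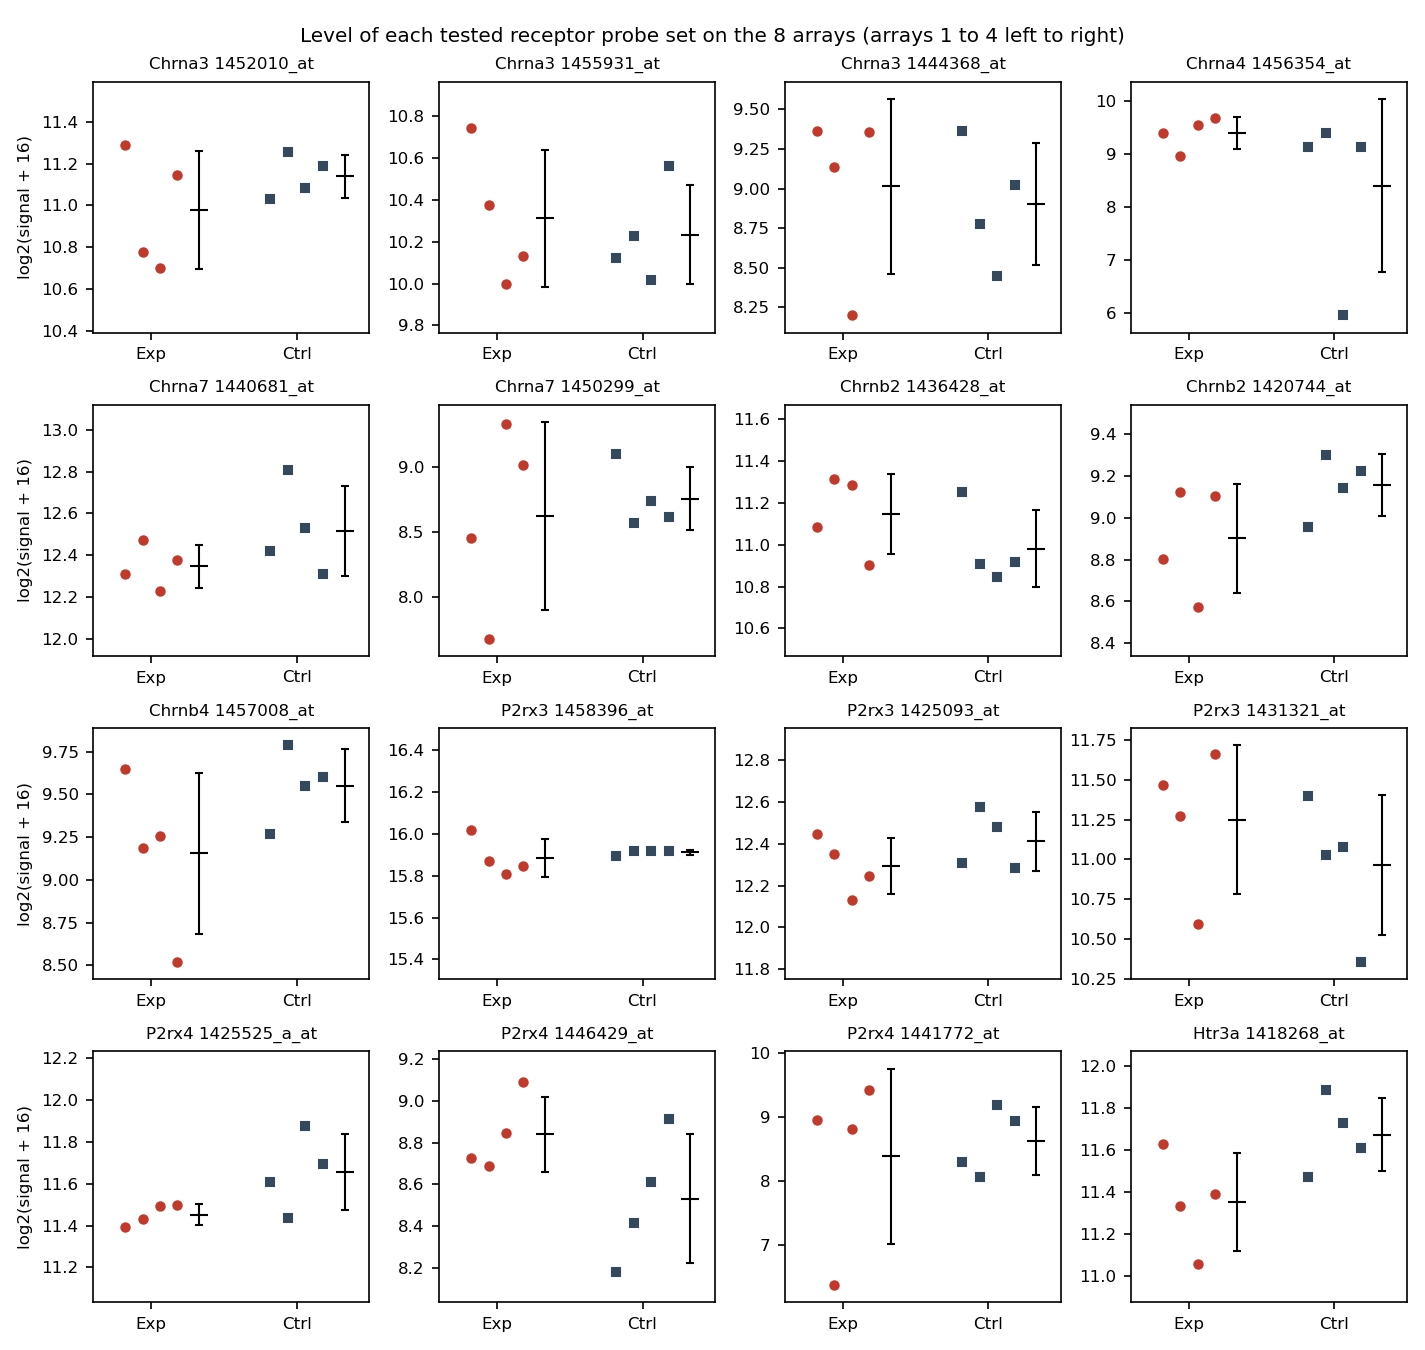
Level, as quantile normalised log2(signal + 16), of the 16 receptor probe sets that passed the filter, with 1 point per array (Exp circles, Ctrl squares) and the mean ± SD of each group (n = 4) beside the points; each panel has its own vertical axis, which does not start at 0. In each panel the ranges of the 4 Exp and the 4 Ctrl arrays overlap, and Ctrl 3 stands far below the other arrays for Chrna4.

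Chrna3 encodes the alpha subunit of the ganglionic nicotinic receptor, and its brightest probe set, 1452010_at, read 11.29, 10.78, 10.70 and 11.15 in Exp 1 to 4, against 11.03, 11.25, 11.08 and 11.19 in Ctrl 1 to 4. Exp 2 and Exp 3 were below the 4 Ctrl arrays, Exp 1 was above them and Exp 4 lay within their range, so that the groups overlapped. The mean was 10.98 ± 0.28 in Exp and 11.14 ± 0.10 in Ctrl (SD, n = 4 each). This is a difference of -0.16 (SE 0.15, 95% confidence interval -0.49 to 0.17, limma adjusted p = 0.999), or 0.896-fold with an interval of 0.711 to 1.13.

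The other probe sets of Chrna3 leaned the other way by amounts well inside their errors. Probe set 1455931_at differed by 0.080 (SE 0.18) and 1444368_at by 0.11 (SE 0.29). In 1444368_at, Exp 3 read 8.20 and the other Exp arrays 9.14 to 9.36, against 8.45 to 9.36 in Ctrl. The lowest array of the 8 was Exp 3 in each of the 3 Chrna3 probe sets.

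Chrnb4, the beta partner of alpha3, had its brightest probe set, 1457008_at, at 9.65, 9.19, 9.26 and 8.52 in Exp 1 to 4, against 9.27, 9.79, 9.55 and 9.60 in Ctrl 1 to 4. Exp 4 was the lowest array, and Exp 1 lay among the Ctrl arrays. The mean was 9.15 ± 0.47 in Exp and 9.55 ± 0.21 in Ctrl (SD, n = 4 each), a difference of -0.40 (SE 0.23, 95% confidence interval -0.91 to 0.12, limma adjusted p = 0.999). Without Exp 4 the difference was -0.19, and over the 8 fits that each left out 1 array it ran from -0.56 to -0.19. A second, dimmer probe set, 1425849_at, was below the filter and averaged 6.30 ± 1.25 in Exp and 7.15 ± 0.61 in Ctrl, with Exp 3 the highest array at 8.01.

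Chrna5, whose subunit joins alpha3 and beta4 as an accessory and whose gene neighbours Chrna3, averaged 8.95 ± 0.45 in Exp and 8.90 ± 0.35 in Ctrl (SD, n = 4 each). The difference was 0.052 (SE 0.25). Its second tested probe set, 1427401_at, differed by -0.011 (SE 0.19). Exp 3 read 8.27, below the 9.14 to 9.21 of the other Exp arrays, and in Ctrl the array with the lowest level was Ctrl 3 at 8.41.

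Chrna4, the alpha subunit of the common brain receptor, showed the largest difference among the receptor probe sets that were tested, and 1 Ctrl array made most of it. Probe set 1456354_at read 9.40, 8.97, 9.54 and 9.67 in Exp 1 to 4, against 9.14, 9.40, 5.96 and 9.13 in Ctrl 1 to 4. In deposited signal, Ctrl 3 stood at 43.7 and the other Ctrl arrays at 532 to 610. The difference over all arrays was 0.99 (SE 0.69, 95% confidence interval -0.57 to 2.55, limma adjusted p = 0.999), and without Ctrl 3 it was 0.17. The other Chrna4 probe sets were below the filter, where 1421203_at differed by 0.60 and 1421202_at by -0.24.

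Chrnb2, the beta partner of alpha4, gave opposite signs in its tested probe sets. The brightest, 1436428_at, read 11.08, 11.31, 11.29 and 10.90 in Exp 1 to 4, against 11.25, 10.91, 10.85 and 10.92 in Ctrl 1 to 4. Its difference was 0.17 (SE 0.14, 95% confidence interval -0.14 to 0.47). Exp 4 was among the low arrays and Ctrl 1 among the high ones, so that the groups overlapped. Probe set 1420744_at averaged 8.90 ± 0.26 in Exp and 9.16 ± 0.15 in Ctrl (SD, n = 4 each), a difference of -0.26 (SE 0.15, 95% confidence interval -0.59 to 0.077).

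The dimmest probe set of the 24, 1441837_at of Chrnb2, was the one whose groups did not overlap. It read 6.17, 5.14, 5.82 and 5.96 in Exp 1 to 4, against 5.07, 4.73, 5.07 and 4.92 in Ctrl 1 to 4. The deposited signals behind these levels were 19.3 to 56.3 in Exp and 9.30 to 19.3 in Ctrl, near the pseudocount of 16. In the fit without a filter it differed by 0.82 (SE 0.23, limma unadjusted p = 0.00677, adjusted p = 0.997), and 4.93% of all 45037 probe sets had an unadjusted p under 0.05 in that fit. It was 1 of 8 receptor probe sets below the filter, and 2.8% of all 18015 probe sets there had groups that did not overlap. With a pseudocount of 1 the difference was 1.30, and with 64 it was 0.39.

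Chrna7, the subunit of the calcium-permeable receptor, had a bright probe set with a small spread. Probe set 1440681_at read 12.31, 12.47, 12.23 and 12.38 in Exp 1 to 4, against 12.42, 12.81, 12.53 and 12.31 in Ctrl 1 to 4. Ctrl 2 was the highest array and Exp 3 the lowest, and 3 of the Exp arrays lay within the Ctrl range. The difference was -0.17 (SE 0.13, 95% confidence interval -0.45 to 0.12, 0.890-fold). The second probe set, 1450299_at, differed by -0.14 (SE 0.32), with an SD of 0.72 in Exp and 0.24 in Ctrl, and without Exp 2 its difference was 0.18.

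Chrna6, a subunit of receptors on catecholamine neurons of the brain, had no probe set over the filter. Its brighter probe set, 1450427_at, averaged 7.61 ± 0.066 in Exp and 7.25 ± 0.62 in Ctrl (SD, n = 4 each), and the second, 1450426_at, averaged 7.21 ± 0.80 in Exp and 7.33 ± 0.21 in Ctrl. At such signals, 69.3 to 208 for the brighter one over the 8 arrays, a difference of this size lies within the spread between arrays. Chrnb3, whose subunit often accompanies alpha6, was below the filter too, at 7.84 ± 1.46 in Exp and 7.89 ± 0.44 in Ctrl, with Exp 3 at 5.67.

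P2rx3, the ATP receptor subunit of small sensory neurons, gave a strong signal on every array. Probe set 1458396_at had deposited signals of 62112, 61604, 59546 and 63193 in Exp 1 to 4, against 60160, 57971, 61651 and 63123 in Ctrl 1 to 4. The ranges overlapped almost wholly, and the difference in level was -0.026 (SE 0.088, 95% confidence interval -0.23 to 0.17), or 0.982-fold with an interval of 0.855 to 1.13. Whether so bright a probe set still responds in proportion to its RNA was not tested, and the deposited table carries no saturation flag.

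The other P2rx3 probe sets were less bright and gave no call. Probe set 1425093_at read 12.45, 12.35, 12.13 and 12.25 in Exp 1 to 4, against 12.31, 12.57, 12.48 and 12.28 in Ctrl 1 to 4, a difference of -0.12 (SE 0.11). Probe set 1431321_at was more variable and differed by 0.29 (SE 0.27), with 10.59 to 11.66 in Exp and 10.36 to 11.40 in Ctrl. The 3 probe sets thus differed in sign, each within an interval that excluded a doubling.

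P2rx2, which forms a mixed receptor with P2X3, was measured by 1 probe set below the filter. It read 6.37, 6.14, 5.96 and 7.63 in Exp 1 to 4, against 7.81, 6.91, 5.85 and 7.21 in Ctrl 1 to 4. The groups overlapped over most of their range, and the difference in means was -0.42 with SDs of 0.76 in Exp and 0.82 in Ctrl (n = 4 each).

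P2rx4 encodes an ATP receptor found in microglia, macrophages and many other cells. Its brightest probe set, 1425525_a_at, read 11.39, 11.43, 11.49 and 11.50 in Exp 1 to 4, against 11.61, 11.44, 11.87 and 11.70 in Ctrl 1 to 4. The Exp arrays lay close together, at or under the lower end of the Ctrl arrays, and Ctrl 2 fell among them. The difference was -0.20 (SE 0.11, 95% confidence interval -0.45 to 0.051, limma adjusted p = 0.999). Macrophage genes had a summed signal of 15520 to 26458 in Exp and 19826 to 23601 in Ctrl, with 6 of the 8 genes over the filter lower in Exp and 0 called, and their part in the P2rx4 signal was not tested.

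Of the other P2rx4 probe sets, 1446429_at had the opposite sign to the brightest. Probe set 1446429_at was higher in Exp by 0.31 (SE 0.17, 95% confidence interval -0.072 to 0.69) and 1441772_at differed by -0.23 (SE 0.61). In 1441772_at Exp 2 read 6.38 and the other Exp arrays 8.80 to 9.41, against 8.06 to 9.18 in Ctrl. Without Exp 2 that difference was 0.44. Just under the filter, 1452527_a_at averaged 8.29 ± 0.36 in Exp and 8.58 ± 0.12 in Ctrl (SD, n = 4 each); its mean over the 8 arrays was 8.44, and that of 1441772_at, just over the filter, was 8.50.

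Htr3a, the subunit without which no 5-HT3 receptor forms, had the smallest unadjusted p of the 16 tested probe sets. Its single probe set, 1418268_at, read 11.63, 11.33, 11.06 and 11.39 in Exp 1 to 4, against 11.47, 11.89, 11.73 and 11.61 in Ctrl 1 to 4. In 3 of the Exp arrays the level was below the 4 Ctrl arrays, whereas Exp 1 lay within the Ctrl range. The mean was 11.35 ± 0.24 in Exp and 11.67 ± 0.18 in Ctrl (SD, n = 4 each), a difference of -0.32 (SE 0.14, 95% confidence interval -0.65 to 0.0060, limma unadjusted p = 0.0535, adjusted p = 0.999). This is 0.800-fold with an interval of 0.637 to 1.00. Leaving out single arrays moved the difference between -0.42, without Exp 1, and -0.22, without Exp 3. Htr3b, the partner subunit that needs 5-HT3A, was below the filter at 8.27 ± 0.27 in Exp and 8.53 ± 0.59 in Ctrl.

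**Figure D2:**
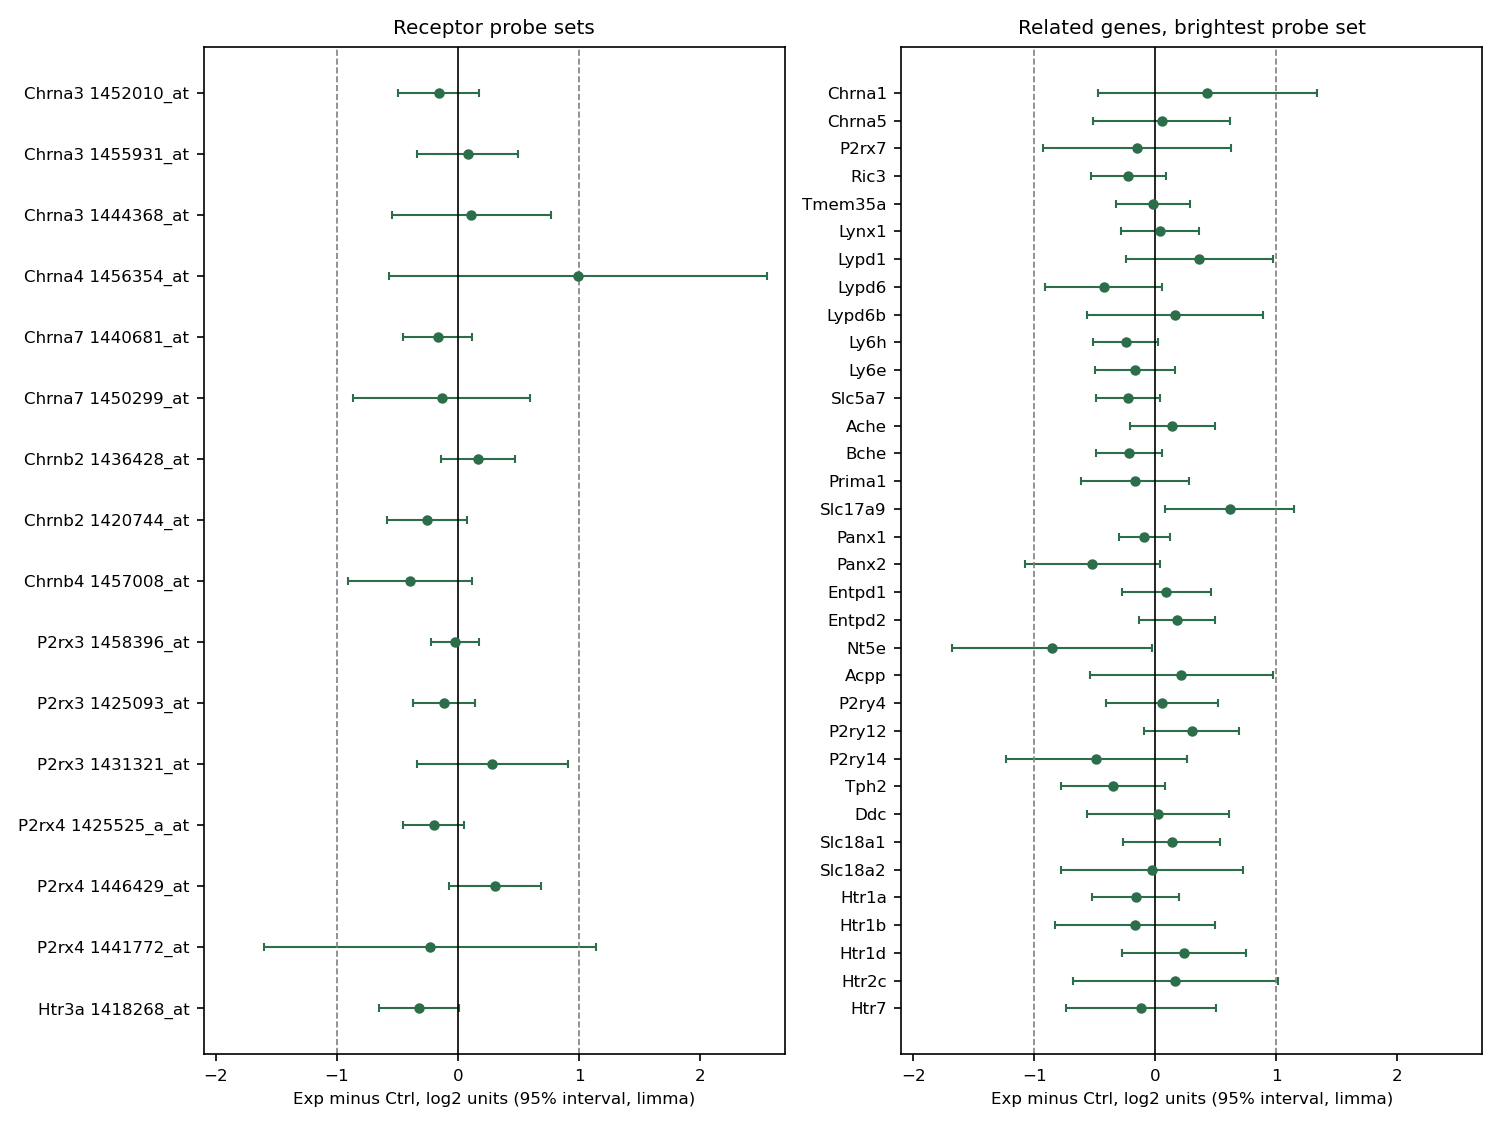
Difference between Exp and Ctrl in log2 units (points) with its 95% confidence interval from limma (bars), for the 16 tested receptor probe sets on the left and the 34 tested related genes on the right. Dashed lines mark a halving and a doubling; the intervals of 1456354_at (Chrna4) and 1441772_at (P2rx4) are the ones on the left that reach beyond a dashed line.

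Across the receptor genes the lowest levels were not spread evenly over the arrays. Of the 16 tested probe sets, 8 had their lowest level of the 8 arrays in Exp 3, where 13.6% of all tested probe sets did; over the 8 arrays that share ran from 8.96% to 15.8%. These 8 belong to Chrna3 (3 probe sets), P2rx3 (2 probe sets), Chrna7, Chrnb2 and Htr3a, and probe sets of one gene share their transcript. Counting the brightest probe set of each gene, 4 of 8 were lowest in Exp 3, against 13.5% of 12763 genes. Of these 4, P2rx3 1458396_at was lowest in Exp 3 only in the quantile normalised level. Its lowest deposited signal was 57971 in Ctrl 2, against 59546 in Exp 3. The choice of Exp 3 was made after its values were seen. Exp 3 was also the array with the highest summed signal of skeletal muscle genes, while its summed signal of sensory neuron genes, 517941, lay within the range of the other Exp arrays and above that of Ctrl. A sum is weighted to the brightest genes. The mean level of the same sensory neuron genes, as a deviation from the 8-array mean, was -0.013 in Exp 3, within the -0.058 to 0.11 of Ctrl. Schwann cell genes had a summed signal of 55314 to 70537 in Exp (57370 in Exp 3) and 68368 to 90988 in Ctrl, lower in Exp in 7 of 7 with 0 called. The part of these cells in the receptor levels was not tested. In such bulk samples fewer cells of a type and less RNA per cell cannot be told apart. Without Exp 3, 10 of the 17 receptor probe sets that then passed the filter were lower in Exp, with a median of -0.067, and 0 were called by limma.

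**Figure D3:**
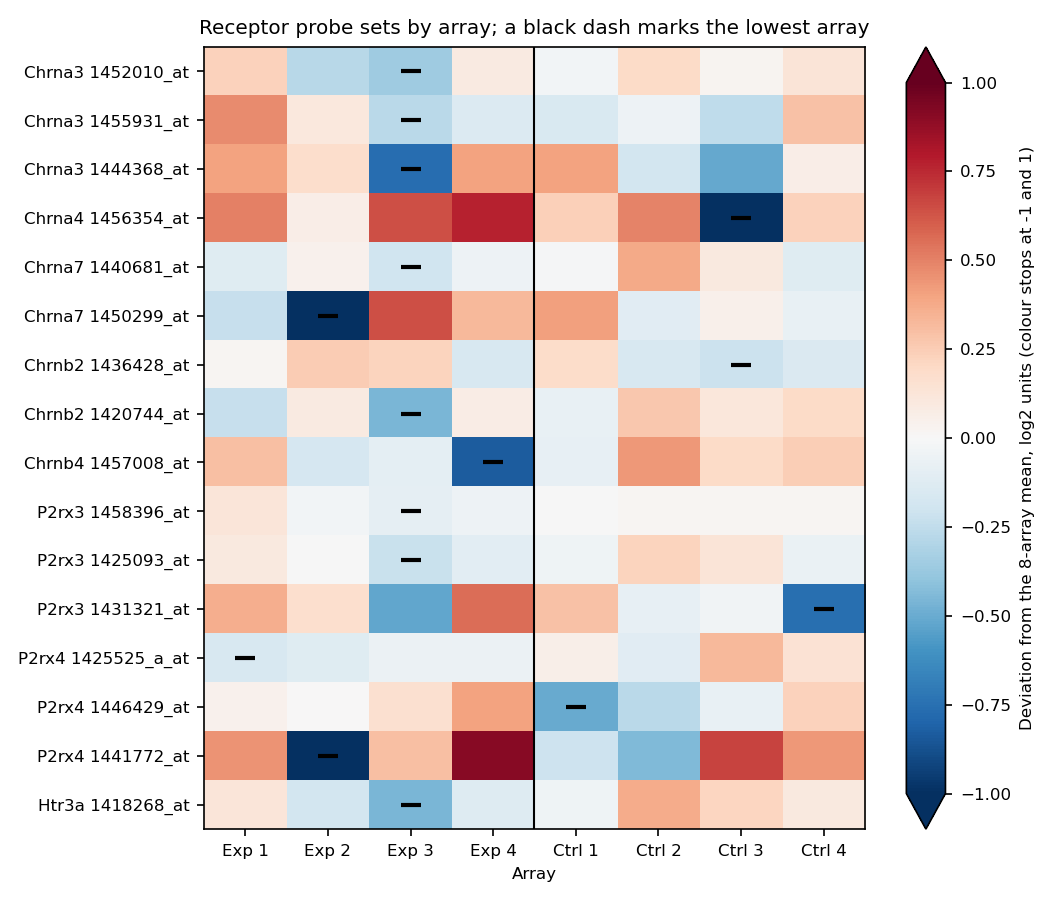
Deviation of each tested receptor probe set from its mean over the 8 arrays, in log2 units, for the 4 Exp and the 4 Ctrl arrays; the colour scale stops at -1 and 1, and a black dash marks the lowest array of each row. In Exp 3, 8 of the 16 rows carry the dash.

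Subunits that assemble into one receptor were compared across the 8 arrays, as deviations from their group means, in 6 pairs. Exact permutation here means that all orders of the arrays were counted. Deviations cancel out within a group, so the arrays are not freely exchangeable. The permutation p-values are therefore approximate and can be too small, also where a pair passed with an array left out. The pair with the largest correlation was Chrna3 with Chrna5 (Pearson r = 0.65, exact permutation p = 0.0883, adjusted 0.530; Spearman rho = 0.76, exact permutation p = 0.0368, adjusted 0.221; two-sided, n = 8 arrays). Without Exp 1 and Exp 3, the arrays farthest from the median of Chrna3, r was 0.34. Leaving out the extreme arrays narrows the range of Chrna3, and r can fall for that reason alone. Without Exp 1 alone r was 0.64, and without Exp 3 alone it was 0.34. Chrna3 with Chrnb4 gave r = 0.15 (exact permutation p = 0.723, adjusted 0.808) and rho = 0.19 (exact permutation p = 0.665, adjusted 0.825), and r was -0.26 without both Exp 1 and Exp 3. Both depended on single arrays. Chrna3 with Chrnb4 gave r = 0.87 without Exp 4 (exact permutation, Pearson p adjusted over the 6 pairs 0.0464, Spearman 0.143) and -0.51 without Exp 1 (exact permutation, adjusted 0.741). Without Exp 2, Chrna3 with Chrna5 gave r = 0.86 (exact permutation, adjusted 0.0464) and rho = 0.93 (exact permutation, adjusted 0.0405).

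The remaining pairs had smaller r in size than Chrna3 with Chrna5. Chrna4 with Chrnb2 gave r = 0.22 (exact permutation p = 0.644) and rho = 0.12 (exact permutation p = 0.793), and r was -0.038 without Ctrl 2 and Ctrl 3. Chrna6 with Chrnb2 gave r = -0.12 (exact permutation p = 0.808) and rho = -0.21 (exact permutation p = 0.619), and Chrna6 with Chrnb3 gave r = 0.24 (exact permutation p = 0.483) and rho = 0.40 (exact permutation p = 0.327). For P2rx2 with P2rx3, r was -0.12 (exact permutation p = 0.780) and rho -0.096 (exact permutation p = 0.825). Without the arrays farthest from the median of the first gene, these 3 pairs gave r of -0.29, 0.30 and 0.081 in this order. Adjusted over the 6 pairs, Pearson's p was 0.808 for each of these 4 pairs, Spearman's was 0.825, and no pair passed. Single arrays moved these pairs too. Without Exp 3, Chrna6 with Chrnb3 gave r = 0.73 (exact permutation, adjusted 0.281) and rho = 0.93 (exact permutation, adjusted 0.0405), and without Ctrl 3, Chrna4 with Chrnb2 gave r = -0.60 (exact permutation, adjusted 0.461). Chrna6, Chrnb3 and P2rx2 were below the filter, where the level carries little signal.

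**Figure D4:**
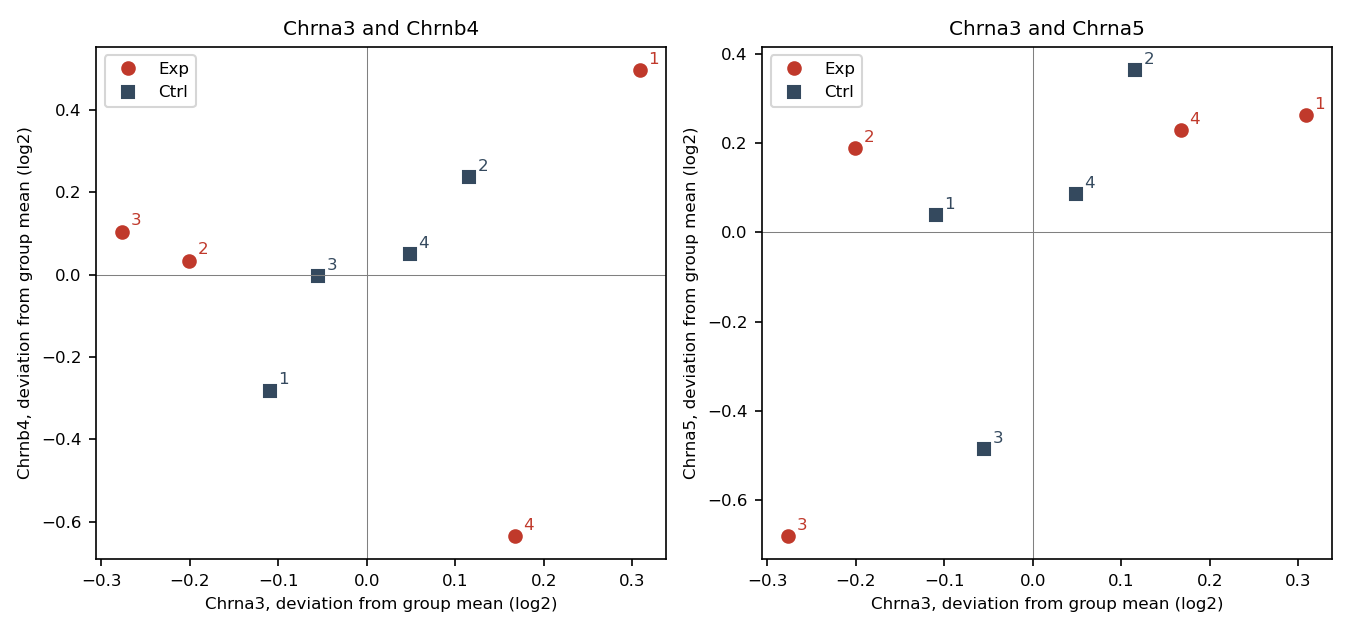
Deviation from the group mean, in log2 units, of Chrnb4 (left) and Chrna5 (right) against that of Chrna3, with 1 point per array (Exp circles, Ctrl squares, each with its number). Exp 4 is the lowest point on the left, and Exp 3 on the right.

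Genes around these receptors were described by 6 lists, which held 64 genes, 62 of them with a probe set and 34 over the filter. Of those 34, 16 were higher and 18 lower in Exp, with a median of -0.023, and 0 were called by limma (adjusted p of 0.999 for the lowest). At an unadjusted p under 0.05 there were 2, where 4.69% of all tested probe sets lay under that value. Of 10 other nicotinic subunits, 2 of the 9 with a probe set passed the filter, and both were higher in Exp (median 0.24, 0 called). Chrna1, the alpha subunit of the muscle receptor, differed by 0.43 (SE 0.40) and was highest in Exp 3, at 10.03, the array with the highest muscle signal, against 8.18 to 8.67 in the other Exp arrays and 7.91 to 8.80 in Ctrl. Whether muscle tissue added to the Chrna1 level there was not tested. Of the 5 other P2X and 5-HT3 subunits, P2rx7, an ATP receptor of macrophages and glia, was the one over the filter, with a difference of -0.15 (SE 0.34).

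Chaperones and modulators of nicotinic receptors had 8 of 9 genes over the filter, 3 higher and 5 lower in Exp (median -0.093, 0 called). Ric3 and Tmem35a, which help alpha7 receptors fold and reach the surface, differed by -0.23 (SE 0.14) and -0.017 (SE 0.14). The Ly6 proteins dampen or tune the receptors, and Ly6h differed by -0.25 (SE 0.12), Lypd6 by -0.43 (SE 0.21) and Lypd1 by 0.36 (SE 0.27). A second tested probe set of Lypd6, 1456138_at, differed by -0.0019 (SE 0.22), and one of Lypd1, 1442887_at, by 0.62 (SE 0.29). For Ric3 the other tested probe sets gave -0.073 (1434912_at, SE 0.20) and 0.20 (1447553_x_at, SE 0.13), so that its probe sets differed in sign.

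Acetylcholine synthesis, transport and breakdown had 4 of 7 genes over the filter, 1 higher and 3 lower in Exp (median -0.19, 0 called). Slc5a7, the choline transporter of cholinergic endings, differed by -0.23 (SE 0.12), and the cholinesterases Ache and Bche by 0.14 (SE 0.16) and -0.22 (SE 0.12). Prima1, which anchors acetylcholinesterase in the membrane, differed by -0.17 (SE 0.20).

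The list of ATP release, breakdown and P2Y receptors had 10 of 15 genes over the filter, 6 higher and 4 lower in Exp (median 0.073, 0 called), and it held both genes with an unadjusted p under 0.05. Slc17a9, the transporter that loads ATP into vesicles, read 10.10, 9.61, 9.65 and 10.49 in Exp 1 to 4, against 9.77, 9.22, 9.42 and 8.97 in Ctrl 1 to 4. That is a difference of 0.61 (SE 0.23, limma unadjusted p = 0.0281, adjusted p = 0.999), and its second probe set, 1432023_a_at, differed by 0.18 (SE 0.21). Nt5e, the surface enzyme that makes adenosine from AMP, read 8.26, 8.62, 8.36 and 6.87 in Exp 1 to 4, against 8.56, 9.24, 8.57 and 9.17 in Ctrl 1 to 4. Its difference was -0.85 (SE 0.37, limma unadjusted p = 0.0449, adjusted p = 0.999), and in both genes the groups overlapped. Panx2, a pannexin, differed by -0.52 (SE 0.25) and P2ry12, an ADP receptor of microglia, by 0.30 (SE 0.17).

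Serotonin synthesis, transport and G protein-coupled receptors had 9 of 17 genes over the filter, 4 higher and 5 lower in Exp (median -0.029, 0 called). Tph2, the neuronal enzyme that starts serotonin synthesis, differed by -0.35 (SE 0.19) and the vesicular transporter Slc18a1 by 0.14 (SE 0.18). Among the receptors, Htr1a differed by -0.16 (SE 0.16) and Htr1d, a target of antimigraine triptans in trigeminal neurons, by 0.24 (SE 0.23).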

How the data were processed

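The values are intensities, 1 per probe set and array, deposited as a linear table, and the software behind them was not given in the sources used. Leaving out the top and bottom 2% of probe sets, the deposited intensities averaged 2500 on each array, so differences are relative to the bulk of probe sets. Groups and numbers came from the sample titles. The 64 control probe sets were removed and log2(signal + 16) was quantile normalised. Exp was set against Ctrl with limma 3.58.1 (lmFit, eBayes; R 4.3.3), two-sided, with p-values adjusted by Benjamini and Hochberg's method over the 27022 tested probe sets. Genes were named from the platform annotation, updated by Entrez identifier through RefSeq (GRCm38.p6), and 34945 probe sets carried 1 name, 932 several and 9160 none. Subunit pairs were tested by permutation over all 40320 orders of 8 arrays, called exact permutation in the text. Because group means were removed first and arrays of both groups were permuted together, these p-values are approximate. The fit was checked on simulated data, with 50 changed probe sets at each size of change. It called 14% of those changed by 0.5 log2 units, 66% of those changed by 1 and 92% of those changed by 2, with 8 false calls. Small true differences would thus mostly go uncalled. The simulation changed many probe sets at once and drew normal noise independently for each. With more calls the adjusted cut is less strict, and the real arrays gave 1 call. These shares can therefore be too high for a single changed receptor gene.

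The 10 genes, the lists and the tests were chosen with earlier results of these data known. All receptor probe sets are named, as are up to 4 genes per list with the smallest p, plus Chrna5, Chrnb3, P2rx7, Htr3b and Tmem35a whatever their p, and Th and Dbh among markers. Alternatives were other pseudocounts, filters and normalizations, the replicate number as a block, trend with robust fitting, array weights, gene means and leaving out each array.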

Additional observations from a re-analysis of the deposited data

Results flagged for a closer look

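In each group of 4 arrays, the receptor probe sets and the named related genes were searched for single arrays that stand apart by Dixon's criterion at the 95% level (the gap to the next array against the range of the group). It was met in 5 of 92 groups, where chance gives about 1 in 20, or 4.6. Ctrl 3 lay at 5.96 for Chrna4 1456354_at (the other Ctrl arrays 9.13 to 9.40), and Ctrl 2 at 6.78 for Chrna4 1421203_at (the others 8.28 to 8.33). Ctrl 1 lay at 15.89 for P2rx3 1458396_at, where the other 3 Ctrl arrays were within 15.917 to 15.918. In deposited signal, Ctrl 1 at 60160 lay between Ctrl 2 at 57971 and Ctrl 3 at 61651, so it stood apart only in the quantile normalised level. Exp 3 lay at 8.27 for Chrna5 1442035_at (the others 9.14 to 9.21) and at 5.67 for Chrnb3 1451842_a_at (the others 8.41 to 8.82).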

How the results depend on the processing

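No receptor probe set and no gene of the related lists was called by limma under any alternative run; over 269 refitted values of the 16 tested receptor probe sets the lowest adjusted p was 0.672, and 11 of them changed sign. With gene means, Chrna3 gave 0.011, Chrnb2 -0.045 and P2rx3 0.048, and without quantile normalization P2rx3 1458396_at gave 0.021. Leaving out single arrays turned the sign of 5 small differences, whose ranges were -0.064 to 0.19 (Chrna3 1455931_at), -0.040 to 0.38 (Chrna3 1444368_at), -0.37 to 0.18 (Chrna7 1450299_at), -0.071 to 9.14e-05 (P2rx3 1458396_at) and -0.42 to 0.44 (P2rx4 1441772_at, in the 4 fits where it passed the filter). Unadjusted p-values were less steady, and some alternatives brought single receptor probe sets under 0.05. For Htr3a, limma's unadjusted p was 0.0535 at first, 0.0424 with median centring, 0.0194 without Exp 1 and 0.139 without Exp 3. For P2rx4 1446429_at it was 0.100 at first and 0.0384 with the replicate block. The single call among all probe sets became 0 without a filter, with a filter at the 60th percentile and with the replicate block, and leaving out single arrays gave 0 to 1. The replicate block called 0 receptor probe sets and 0 related genes. Same-numbered arrays deviated together with correlations of -0.12 to 0.050, and 0 of 8 arrays correlated best with its own number. The titles do not say whether equal numbers pair arrays, and so few correlations cannot decide it. Subunit pairs called by Pearson's r numbered 0 to 1 when single arrays were left out: without Exp 4, Chrna3 with Chrnb4 gave r = 0.87 (exact permutation p = 0.00774, adjusted 0.0464), and without Exp 2, Chrna3 with Chrna5 gave r = 0.86 (exact permutation p = 0.00774, adjusted 0.0464). By Spearman's rho, Chrna3 with Chrna5 passed without Exp 2 and Chrna6 with Chrnb3 without Exp 3 (rho = 0.93, exact permutation p = 0.00675, adjusted 0.0405 for each). These permutation p-values are approximate, since group means were removed first, so pairs that passed narrowly are not firm calls. The cause of these shifts was not tested. The values carry no detection call, which limits what can be said of the low signals of Chrna6 and P2rx2. The same holds for the dimmest Chrnb2 probe set, whose signals were near the pseudocount.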

Other observations

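Among the 28 related genes below the filter, 3 had groups that did not overlap, where 2.8% of all probe sets below it did; they were chosen after their values were seen. Each was lower in Exp. Chrna2, a nicotinic alpha subunit, read 5.99, 6.01, 5.54 and 5.83 in Exp 1 to 4, against 7.43, 6.87, 6.78 and 6.79 in Ctrl 1 to 4, a difference of -1.12 in the fit without a filter (SE 0.19, limma unadjusted p = 0.000368, adjusted p = 0.414). Chrna9, an alpha subunit of cochlear hair cells, differed by -1.13 (SE 0.37) and P2rx1, the ATP receptor of smooth muscle and platelets, by -0.34 (SE 0.12), with limma adjusted p = 0.997 for both. The Exp levels of Chrna2, and that of Chrna9 in Exp 1 at 5.58, were far under the filter cut of 8.45. At such low signals the size of a log2 difference depends on the pseudocount, and no detection call is given.

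Dbh, the enzyme that makes noradrenaline, was also below the filter and read 8.50, 8.42, 9.24 and 9.14 in Exp 1 to 4, against 8.34, 8.32, 7.43 and 8.15 in Ctrl 1 to 4. In the fit without a filter it differed by 0.77 (SE 0.28, limma adjusted p = 0.997). Th, the first enzyme of the same pathway, averaged 12.31 ± 0.24 in Exp and 12.38 ± 0.26 in Ctrl (SD, n = 4 each), a difference of -0.074 (SE 0.17). Of the 5 listed chromaffin and sympathetic genes over the filter, Th among them, 0 were higher and 5 lower in Exp, with 0 called. Dbh thus went the other way from the tested genes of its list.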
